A study of Mus musculus with 4 samples.

Results

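The genes described here encode collagens and the other proteins of the dermal extracellular matrix. The set was a fixed list of 37 genes, each represented by its probe set with a single listed gene symbol; 35 of the 37 were measured, of 19938 named genes in all. Fbn1 and Loxl2 were not analysed here. The 35 measured genes each had 1 probe set, and all 35 reached the floor (the median level of all named genes, 6.93 to 6.98 on the log2 scale) on at least 1 array. Levels were read on Affymetrix Mouse Gene 1.0 ST arrays from whole mouse ears, which hold epidermis, dermis, cartilage, muscle and fat.

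There were 4 groups of 1 array each, all from female mice 8 weeks old. The genotypes were Traf6f/f (floxed Traf6, here f/f) and Traf6EKO, an epithelial knockout of Traf6 (here EKO), described in the series title as restricted to keratinocytes; the Cre driver is not named. TRAF6 is an adaptor that carries signals from Toll-like and interleukin receptors to NF-kB. Ears of each genotype were either untreated or received imiquimod (IMQ) cream, 10 mg daily for 2 days. IMQ activates Toll-like receptors and provokes psoriasis-like inflammation in mouse skin. The series text gives n = 2, without saying whether animals were pooled on an array. With 1 array per group no value has a replicate error, so differences between pairs of arrays are given without a p-value and "higher" and "lower" describe these arrays only. Where 4 levels of a gene are given, they stand in array order: f/f without and with IMQ, then EKO without and with IMQ. Levels and differences are on the log2 scale unless given as folds.

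Dermal fibroblasts make most of these proteins. Collagens I, III and V form the fibrils that bear load, collagen VI makes beaded filaments around cells, and collagens XII, XIV and XVI attach to fibril surfaces. Small leucine-rich proteoglycans such as decorin coat the fibrils and set their diameter. Elastin on a microfibril scaffold gives recoil, lysyl oxidases cross-link collagen and elastin, and matricellular proteins such as tenascin-C and periostin appear mainly where tissue is remodelled.

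The series text does not state a hypothesis about matrix, and the comparisons below follow from its design of genotype by treatment. Traf6 was at 9.51, 9.30, 9.65 and 9.35 in array order, and so was no lower in either array with the EKO label. Where its probes lie against the deletion is not stated, and whole ears also hold cells outside the epithelium, so these levels do not check the labels. Skin markers were present: Krt5 and Krt14, the basal keratins, lay between 12.29 and 13.02 on all 4 arrays. Array medians over all probe sets lay between 6.52 and 6.57.

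The upstream sequences of 5 genes are shown: Tnc, the gene of the set furthest above 0 with IMQ, then Dpt, Fmod and Tnxb, at least 1.5-fold lower in f/f, and Col1a2 for collagen I. They were chosen after their values were seen. Each line is the 150 bases before the most upstream RefSeq start site in GRCm38.p6, 5′ to 3′ on the gene's strand. Capitals mark matches to motifs searched on both strands. TATAAA, the letters of the TATA box, was searched at any position, and the element bound by NF-Y as CCAAT. The TATAAA in the Tnc stretch lies at -126 to -121 from the start, and its position was not used to call it a promoter element. The element bound by Sp1 and its relatives was searched as GGGCGG, that of AP-1 factors as TGANTCA, and an NF-kB motif was searched too. The stretches lie at chr4:64047016-64047165 (minus strand) for Tnc, chr1:164796513-164796662 (plus strand) for Dpt, chr1:134037104-134037253 (plus strand) for Fmod, chr17:34670385-34670534 (plus strand) for Tnxb and chr6:4505468-4505617 (plus strand) for Col1a2.
Tnc: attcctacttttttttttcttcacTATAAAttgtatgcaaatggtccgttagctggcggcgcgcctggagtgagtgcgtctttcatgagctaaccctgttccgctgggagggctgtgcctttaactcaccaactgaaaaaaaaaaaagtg
Dpt: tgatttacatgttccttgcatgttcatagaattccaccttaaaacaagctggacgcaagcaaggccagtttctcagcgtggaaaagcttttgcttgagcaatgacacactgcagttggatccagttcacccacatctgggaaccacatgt
Fmod: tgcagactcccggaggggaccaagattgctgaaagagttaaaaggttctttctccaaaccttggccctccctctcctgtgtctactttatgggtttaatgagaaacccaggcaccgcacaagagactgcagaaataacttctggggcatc
Tnxb: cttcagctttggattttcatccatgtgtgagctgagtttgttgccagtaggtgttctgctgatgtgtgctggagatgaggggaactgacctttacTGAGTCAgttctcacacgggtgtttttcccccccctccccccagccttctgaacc
Col1a2: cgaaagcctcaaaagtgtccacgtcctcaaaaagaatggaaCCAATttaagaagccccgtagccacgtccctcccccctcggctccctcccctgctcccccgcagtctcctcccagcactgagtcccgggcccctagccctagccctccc

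Of the 35 measured genes, 22 had an entry in the RefSeq table, and motifs were sought in the 250 bases before each of their starts. TATAAA was found in 4 of the 22 genes, against 12.4% of all 32851 windows of this length. CCAAT was found in 7 (33.8% of all windows), GGGCGG in 11 (32.7%), TGANTCA in 2 (6.75%) and the NF-kB motif in 0 (1.41%). TGANTCA reads the same on both strands apart from its middle base, so each site matches on both strands. The counts here are per gene or per window and not per site. TGANTCA matched in Tnxb, shown above, and in Col6a1. A gene with several listed starts was counted if any of its windows held the motif, whereas the share is per window. These matches describe letters in a window and not sites in use.

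With IMQ in f/f skin, most matrix genes were lower while tenascin-C was higher. Dpt, which encodes the collagen-binding protein dermatopontin, was 2.05-fold lower and Tnc was 3.44-fold higher. Of the 35 genes, 27 were below 0 (25 to 30 under other scalings) against 49.3% of all genes above the floor, and 8 were above 0 against 50.6%. Of the differences nearest 0, those of Col4a1, Col6a3, Lox, Loxl1 and Postn changed sign under another scaling. At least 1.5-fold lower were 6 of 35, against 9.53% of all genes, and at least 1.5-fold higher were 2 of 35, against 10.2%. Past 2-fold were 1 lower (2.63% of all genes) and 1 higher (3.82%). The median difference was -0.20, beside -0.01 for all named genes. The median absolute difference was 0.28, against 0.27 for genes above the floor. In whole ear RNA, fewer cells of a type and less RNA per cell cannot be told apart.

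**Figure D1:**
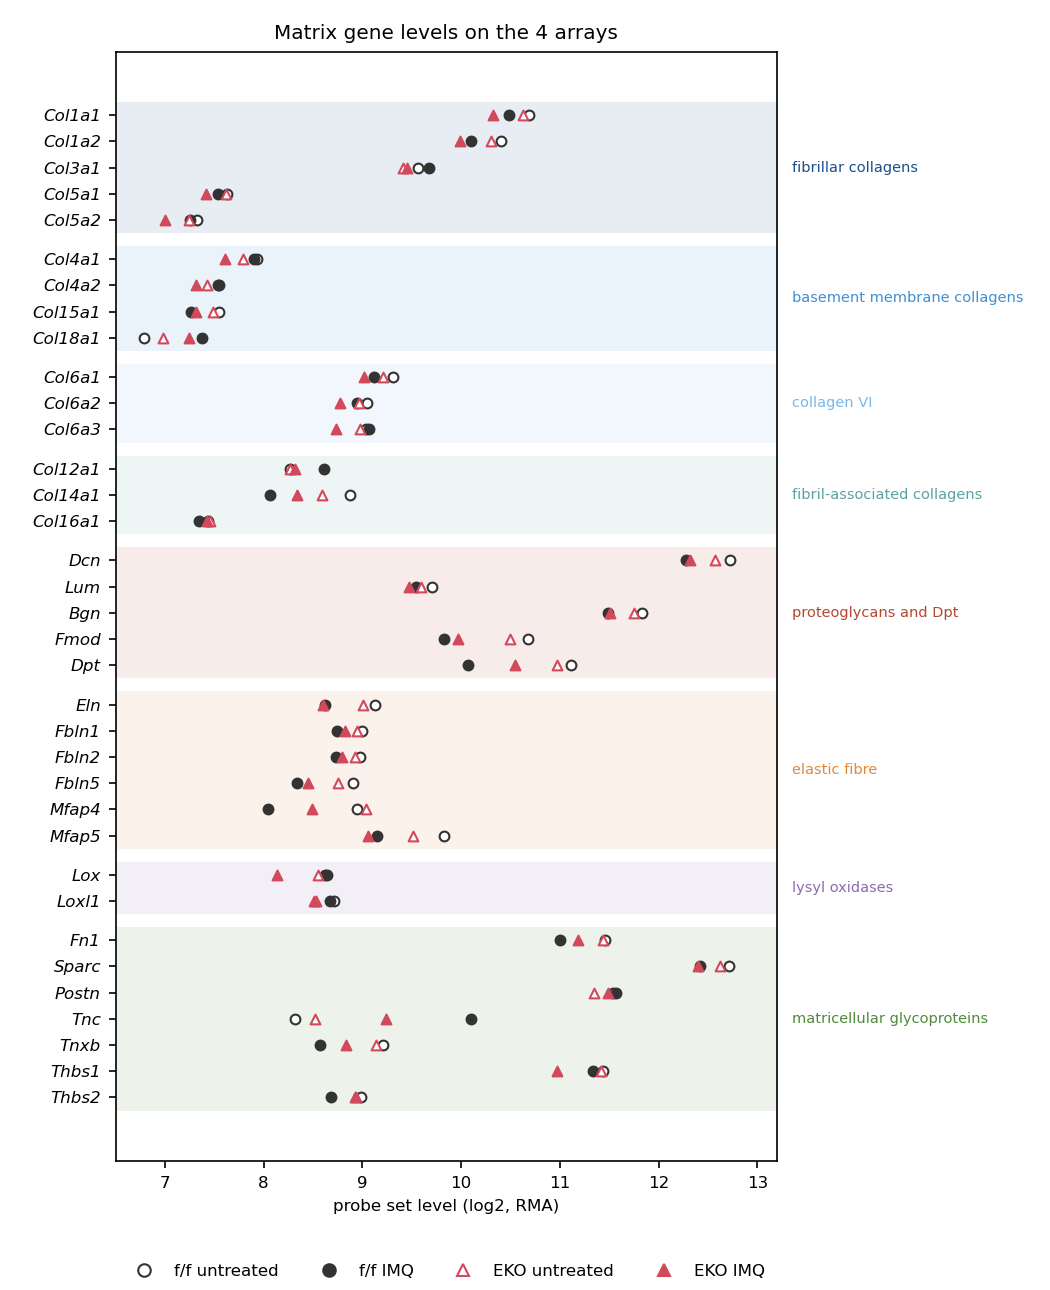
Levels of the 35 matrix genes (log2 RMA, horizontal axis) on the 4 arrays, grouped by role: circles are f/f, triangles EKO, open symbols untreated and filled symbols IMQ. Most filled symbols lie left of the open symbols of their genotype, and Tnc is the clearest exception; levels of different genes cannot be compared, because each probe set has its own response.

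The proteoglycans and dermatopontin were lower with IMQ in both genotypes, in 5 of 5 genes. Dpt was at 11.11, 10.07, 10.97 and 10.54 in array order. Both untreated arrays were high, and f/f IMQ was the lowest. Fmod, encoding the fibril-binding proteoglycan fibromodulin, was at 10.67, 9.83, 10.50 and 9.96 in the same order, a difference of -0.84 in f/f and -0.54 in EKO. Both IMQ arrays were again below both untreated ones. Dcn, encoding decorin, was at 12.72, 12.27, 12.57 and 12.32 (-0.45 in f/f and -0.25 in EKO). Bgn, encoding biglycan, was at 11.83, 11.49, 11.75 and 11.51, and Lum, encoding lumican, had the smallest differences at -0.16 and -0.12. The group's median was -0.45 in f/f and -0.25 in EKO.

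Elastic fibre genes were lower in 6 of 6 measured cases in both genotypes, with a median difference of -0.53 (f/f) or -0.35 (EKO). Mfap4, a microfibril-associated protein, was at 8.95, 8.04, 9.03 and 8.49 in array order. It was 1.88-fold lower with IMQ in f/f and 1.46-fold lower in EKO, close to the 1.45-fold of Fmod. Mfap5, another microfibril gene, was at 9.83, 9.15, 9.52 and 9.06 in that order. Eln, encoding tropoelastin, was at 9.13, 8.62, 9.01 and 8.61, so that the IMQ arrays of the genotypes were nearly equal. Fbln5, a fibulin needed for elastic fibre assembly, was at -0.56 in f/f and -0.31 in EKO. Fbln1 and Fbln2, related fibulins, were nearer 0, at -0.25 and -0.24 in f/f and at -0.12 and -0.14 in EKO.

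The fibrillar collagens had small differences, and the EKO difference was the lower one in 5 of 5 genes, although for Col1a2 the gap was near 0 and changed sign under another scaling. Col1a1 was at 10.69, 10.49, 10.62 and 10.32 in array order, lower with IMQ by 1.15-fold in f/f and by 1.23-fold in EKO. Col1a2, the other chain of collagen I, was at 10.40, 10.10, 10.30 and 9.99, a difference of -0.30 in f/f and -0.31 in EKO. Both chains thus had their lowest level on the EKO IMQ array. Col3a1 was slightly higher with IMQ (0.11 in f/f and 0.03 in EKO). The collagen V genes, which set fibril diameter, were at -0.08 (Col5a1) and -0.07 (Col5a2) in f/f and at -0.21 and -0.24 in EKO. The group medians were -0.08 in f/f and -0.24 in EKO.

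The collagen VI genes were near or below 0, with Col6a1 at -0.19 in both genotypes, Col6a2 at -0.11 in f/f and -0.19 in EKO, and Col6a3 at 0.02 (a sign that changed under other scalings) and -0.24. Among basement membrane collagens, Col4a1 and Col4a2 encode the chains of the main network. In the RefSeq table their start sites lay 21 bases apart on opposite strands of chr8 (GRCm38.p6). Col4a1 was at -0.03 in f/f (its sign changed under another scaling) and -0.18 in EKO, and Col4a2 at 0.00 and -0.12. Col15a1, a collagen beneath vessels and muscle, was lower in both genotypes (-0.28 and -0.17). Col18a1, the source of endostatin, was at 6.79, 7.38, 6.99 and 7.25 in array order. It was the only collagen at least 1.5-fold higher in f/f (1.51-fold), and the f/f untreated array lay below the floor for it.

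The fibril-associated collagens diverged. Col14a1 was at 8.88, 8.07, 8.59 and 8.34 in array order, 1.76-fold lower with IMQ in f/f and 1.19-fold lower in EKO. Col12a1 was in the opposite direction at 8.27, 8.61, 8.27 and 8.32, and its f/f IMQ level stood above the other three. Col16a1 was at -0.09 in f/f and -0.03 in EKO, where its sign changed under another scaling.

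Tnc had the widest range of the matricellular genes. Tenascin-C, its product, is an anti-adhesive glycoprotein of wounds and inflamed skin. Its levels were 8.32, 10.10, 8.53 and 9.24 in array order. Both IMQ arrays were above both untreated ones, and the EKO IMQ array lay between. The difference was 1.78 in f/f (rank 103 from the top of 10548 genes above the floor) and 0.71 in EKO (rank 172 of 10285), or 3.44-fold and 1.64-fold. Tnxb, encoding tenascin-X, was lower at 9.21, 8.57, 9.14 and 8.83 in the same order, so these related genes lay on opposite sides of 0.

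Fn1, encoding fibronectin, was at -0.45 in f/f and -0.25 in EKO, and Sparc, a collagen-binding protein, at -0.28 and -0.23. Postn, encoding periostin, was near 0 in f/f (0.03, and -0.09 after quantile normalization) and at 0.14 in EKO. Thbs1, a thrombospondin that can activate latent TGF-beta, was at 11.43, 11.34, 11.42 and 10.97 in array order. It was low on the EKO IMQ array alone. Thbs2, its relative, was instead lower in f/f IMQ skin (-0.30 in f/f and 0.01 in EKO). Lox, encoding lysyl oxidase, was at 8.62, 8.65, 8.55 and 8.13 and so was also low on the EKO IMQ array alone (0.03 in f/f and -0.42 in EKO), while Loxl1 was at -0.04 and -0.02.

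In EKO skin as a whole, 29 of the 35 genes were below 0 with IMQ (28 to 29 under other scalings), against 52.9% of all genes above the floor. Above 0 were 6, against 47.1%. None of the 35 was at least 1.5-fold lower, against 0.807% of all genes, and 1 of 35, Tnc, was at least 1.5-fold higher, against 2.66%. No gene of the set was past 2-fold in either direction, against 0.0972% of all genes lower and 0.671% higher. The median was -0.23, close to the f/f value of -0.20. For genes above the floor the median absolute difference was 0.13 in EKO and 0.27 in f/f, whereas for the matrix genes it was 0.24 and 0.28. By the SD of the IMQ difference the set was like other genes. It was 0.24 in EKO and 0.49 in f/f for the matrix genes, and 0.27 and 0.57 for genes above the floor.

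**Figure D2:**
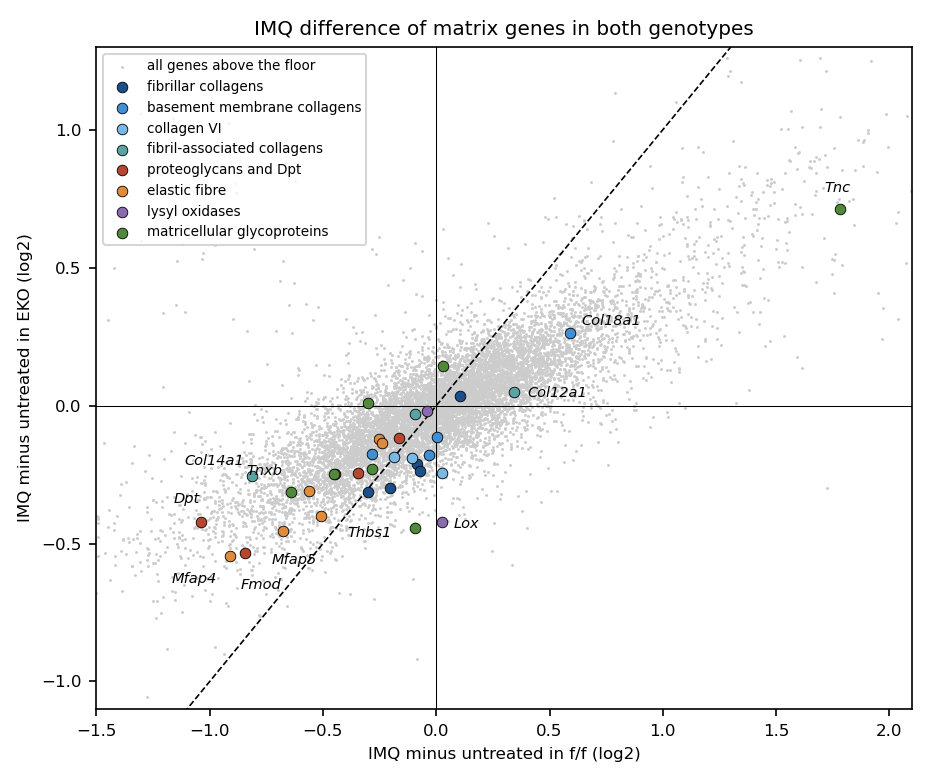
IMQ difference in EKO (vertical, log2) against f/f (horizontal, log2) for the 35 matrix genes (coloured by role) and all genes above the floor (grey; those beyond the axes are not drawn); the dashed line marks equal differences. Most matrix genes lie below and left of 0, Tnc stands far to the upper right, and Lox and Thbs1 lie near 0 in f/f and below 0 in EKO.

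The IMQ differences of the genotypes share no array. Across the 35 genes, which share tissue and platform and are not independent replicates, Pearson r was 0.857 and Spearman rho 0.703; without Tnc, r was 0.739. Over the 10646 genes above the floor r was 0.798. Of the 35, 26 were below 0 in both genotypes and 5 above 0 in both. The same counts were not made over all genes, so whether this is particular to the set was not tested. Lox, Col6a3 and Col4a2 were above 0 in f/f and below 0 in EKO, although the f/f sign of Lox and Col6a3 changed under other scalings. Thbs2 was the reverse. Col4a2 in f/f (0.004) and Thbs2 in EKO (0.009) were themselves next to 0. All 8 genes at least 1.5-fold different in f/f had a smaller difference in EKO, a comparison in which the f/f value also chose the genes. Among all 35 the absolute difference was larger in EKO for 11, of which 8 were among the 15 collagens and 3 among the 20 other genes. Over genes above the floor 19.5% had the larger absolute difference in EKO.

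The difference of the IMQ differences (EKO minus f/f) was above 0 in 21 of 35 genes, against 46.7% of all genes. It had 1 sign throughout in 3 of the 8 role groups and both signs in the other 5. It was above 0, an EKO difference higher than the f/f one, for 5 of 5 proteoglycan and dermatopontin genes (median 0.20) and 6 of 6 elastic fibre genes (median 0.18). All of these genes were below 0 with IMQ in f/f. A gene below 0 in f/f with a smaller absolute difference in EKO lies above 0 here by arithmetic. Only 19.5% of genes above the floor had the larger absolute difference in EKO. The share above 0 among genes below 0 in f/f was not counted, so these counts are not a trait of the roles. On lists described below, it was also above 0 in 15 of 15 skeletal muscle markers (median 0.65) and 13 of 13 adipocyte markers (1.05). In fibroblast identity genes it was above 0 in 17 of 20, and in keratinocyte markers in 2 of 14. It was below 0 for 5 of 5 fibrillar collagens (median -0.10; Col1a2 changed sign under another scaling) and for 11 of all 15 collagens, against 53.3% of all genes. The widest values were those of Tnc, the most negative at -1.07, then Dpt (0.62), Col14a1 (0.56) and Lox (-0.45). At least 1.5-fold higher was 1 of 35 (Dpt), against 3.65% of all genes, and at least 1.5-fold lower was 1 of 35 (Tnc), against 4.63%. Tnc was also the only one past 2-fold, lower in EKO (1.18% of all genes), and none was 2-fold higher (1.06%). The sign of this value changed under other scalings between arrays for Col1a2, Col6a1 and Loxl1, and in no other gene of the 35. No test of these values was possible with single arrays.

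**Figure D3:**
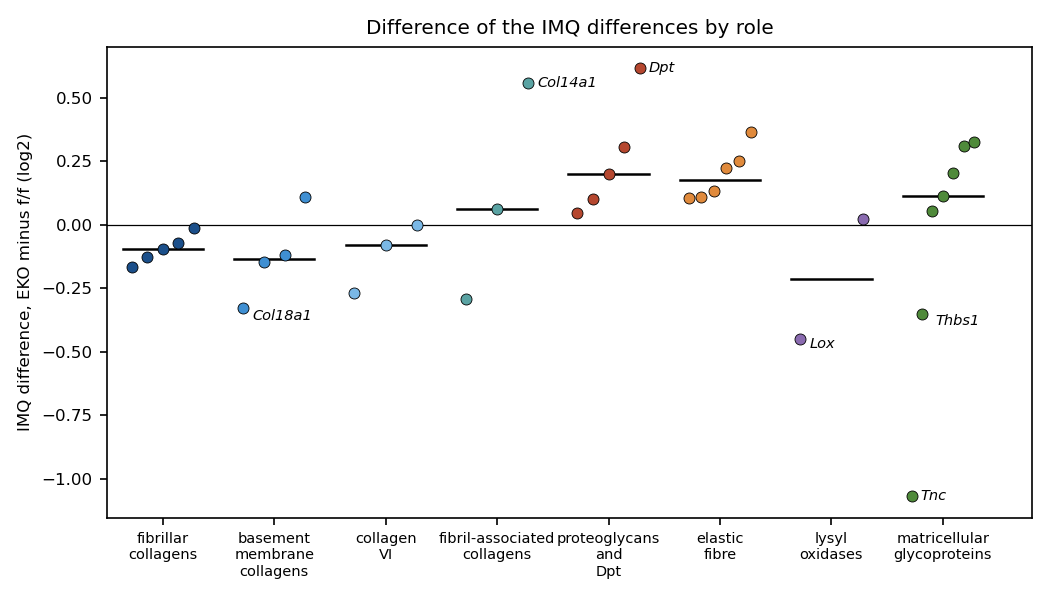
Difference of the IMQ differences (EKO minus f/f, log2, vertical) for each matrix gene (point), by role, with the group median as a line. All proteoglycan and elastic fibre genes lie above 0 and all fibrillar collagens below 0 (Col1a2 changed sign under another scaling), with Tnc lowest at -1.07.

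In untreated ears these genes were at nearly the same level in both genotypes. Of the 35, 30 were below 0 in EKO against f/f (27 to 30 under other scalings), against 44.9% of all genes above the floor, and 5 above 0, against 55.1%. Col5a1, Col12a1, Fn1 and Thbs1 lay so near 0 that another scaling changed their sign. The median was -0.08. None was at least 1.5-fold lower (1.06% of all genes) or higher (0.647%), and so none was past 2-fold (0.324% and 0.0686%). The furthest below 0 were Mfap5 (-0.31) and Col14a1 (-0.29). Tnc and Col18a1, the genes highest with IMQ in f/f, were at 0.20 each. The median absolute difference of the set was 0.09, against 0.10 for genes above the floor.

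With IMQ, the genotypes differed more widely and in both directions. The median absolute difference was 0.16 for the set and 0.14 for genes above the floor, against 0.09 and 0.10 in untreated ears. Of the 35 genes 21 were below 0 in EKO against f/f, against 50.9% of all genes, and 14 were above 0, against 49.1%; the median was -0.08. Only Tnc was at least 1.5-fold lower (-0.86, 1.82-fold), against 2.61% of all genes, and none was at least 1.5-fold higher (2.03%) or past 2-fold (0.875% lower and 0.418% higher). The cross-linking enzyme gene Lox (-0.52), Thbs1 (-0.37) and Col6a3 (-0.33) followed on the lower side. Dpt (0.47) and Mfap4 (0.45) were highest in EKO. Collagens were below 0 in 12 of 15 cases, with a median of -0.16, and the other genes in 9 of 20, with a median of 0.03.

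In limma, an IMQ effect common to both genotypes and a genotype effect common to both treatments were estimated from 2 arrays against 2. With 1 residual degree of freedom, the residual is the genotype-by-IMQ difference and not the spread of like animals. The eBayes step drew this spread towards that of other genes (3.07 prior degrees of freedom). The SE and p-values therefore rest largely on other genes. For IMQ, 0 of 35 matrix genes and 0 of 10646 genes passed an adjusted p of 0.05, while 2808 genes had an unadjusted p under 0.05. At an unadjusted p under 0.05 were 13 matrix genes lower and 2 higher, against 14.1% and 12.3% of all genes. Mfap4 had an averaged IMQ effect of -0.73 ± 0.13 (SE; limma, adjusted p = 0.162), Fmod -0.69 ± 0.13 (limma, adjusted p = 0.162) and Tnc 1.25 ± 0.28 (limma, adjusted p = 0.162). The smallest adjusted p of the set ranged from 0.140 to 0.213 over the alternative limma fits. All 3 had the same sign in both genotypes. For genotype, 0 of 35 passed the adjusted threshold in limma and 0 of 35 had an unadjusted p under 0.05 (344 of all genes did), against 1.3% of all genes lower and 1.93% higher; the smallest limma adjusted p of the set was 0.999.

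Genes that act on this matrix were drawn from further lists, whose counts stand beside the same all-gene shares as above (in f/f 49.3% below 0, 9.53% at least 1.5-fold lower and 10.2% at least 1.5-fold higher; in EKO 52.9% below 0). Of 30 measured collagen synthesis and processing genes, 25 reached the floor in f/f, of which 18 were below 0 with IMQ, 3 at least 1.5-fold lower and 1 at least 1.5-fold higher. Sparcl1, a relative of Sparc, was at -1.14 in f/f and -0.61 in EKO, and Adamts14, a procollagen protease, at -0.96 and -0.36. P4hb, the protein disulfide isomerase subunit of prolyl hydroxylase, was higher at 0.74 and 0.33. In the TGF-beta list 17 of 21 genes above the floor were below 0 in f/f and 18 of 21 in EKO. The ligand genes Tgfb3 (-0.83 and -0.53) and Tgfb2 (-0.81 and -0.54), the latent TGF-beta binding protein gene Ltbp4 (-0.69 and -0.44) and Nrep (-0.96 and -0.40) had the widest differences in f/f. The third ligand gene, Tgfb1, named after its values were seen, was on the other side of 0 (0.51 and 0.16). Ccn1, a matricellular gene on that list, was at 0.34 in f/f and -0.58 in EKO.

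Receptors for matrix were mixed. Of 12 above the floor in f/f, 8 were below 0, including the collagen receptor genes Itga11 (-0.61) and Itga1 (-0.50), while Cd44, which encodes the hyaluronan receptor, was 2.91-fold higher. Of 27 other collagen, proteoglycan and microfibril genes above the floor, 22 were below 0 with IMQ in f/f and 24 in EKO, with 7 at least 1.5-fold lower in f/f and 0 in EKO. Ecm2 (-1.03 in f/f and -0.55 in EKO), the proteoglycan genes Omd (-0.94 and -0.58) and Ogn (-0.93 and -0.25), and Smoc2 (-0.85 and -0.51) led these. Metalloproteinases and their inhibitors went both ways in f/f, with 4 of 14 at least 1.5-fold higher (10.2% of all genes) and 3 lower (9.53%). Timp1, an inhibitor, had levels of 6.69, 9.14, 6.86 and 7.57 in array order, and so was below the floor on both untreated arrays. The collagenase gene Mmp13 had levels of 5.64, 7.07, 5.88 and 6.17 and reached the floor on the f/f IMQ array alone. The stromelysin gene Mmp3 was at 0.98 in f/f and 0.15 in EKO, and Timp4 at -1.03 and -0.58.

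Of the marker lists for dermal fibroblasts and other tissue layers, some were lower with IMQ, as most matrix genes were, and others were higher or mixed. Their part in the matrix differences was not tested. Fibroblast identity genes had a median of -0.39 in f/f and -0.20 in EKO, with 16 of 20 above the floor below 0 in f/f and 15 in EKO. Among the lower ones were Clec3b (-0.91 and -0.51), Sfrp2 (-0.86 and -0.51) and Fap (-0.70 and -0.61). Above 0 were 4 of 20 in f/f and 5 of 20 in EKO. These included Thy1 (0.57 and 0.10), Crabp1 (0.54 and 0.20) and Dpp4 (0.05 and 0.54), named after their values were seen. Skeletal muscle markers were below 0 in 15 of 15 in both genotypes (medians -0.98 and -0.33), adipocyte markers in 13 of 13 (-1.44 and -0.38), and cartilage markers in 10 of 12 in f/f and 12 of 12 in EKO (-0.34 and -0.28). Keratinocyte markers were above 0 in 11 of 14 in f/f and 10 of 14 in EKO (0.34 and 0.07). The widest keratinocyte difference in f/f went the other way, Krt15 at -1.94 (-0.63 in EKO). Neutrophil markers, with no floor applied, were above 0 in 12 of 12 in f/f and 11 of 12 in EKO (2.11 and 0.26). In f/f the 7 neutrophil markers that reached the floor did so on the IMQ array alone. Mean marker levels over the 4 arrays ran from 8.10 to 8.43 for fibroblasts, 9.96 to 10.99 for muscle, 8.75 to 10.19 for adipocytes and 5.26 to 7.54 for neutrophils. For hair follicle markers the medians were -1.22 in f/f and 0.52 in EKO, and for macrophage markers -0.32 and -0.03; endothelial markers were at -0.35 and -0.15, smooth muscle and pericyte markers at -0.13 and -0.03 and Schwann cell markers at -0.36 and -0.19.

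**Figure D4:**
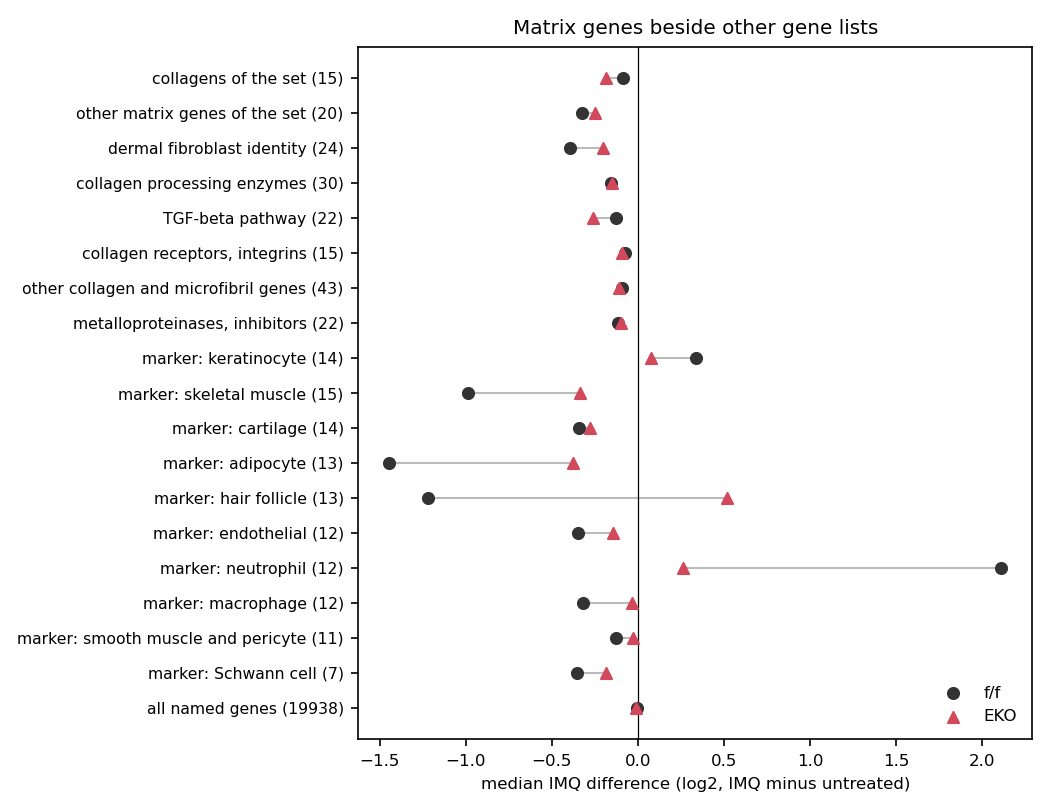
Median IMQ difference (log2, horizontal) of the collagens, the other matrix genes and each further list (number of measured genes in parentheses) in f/f (circles) and EKO (triangles). The collagens lie at -0.08 and -0.19, nearer 0 than muscle and adipocyte markers in f/f, and their EKO value is the lower one.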

How the data were processed

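Total RNA of whole mouse ears was measured on 4 Affymetrix Mouse Gene 1.0 ST arrays, grouped by sample title. RMA, a method that reduces the probes of a set to 1 value, gave the authors' deposited log2 levels, per the submitters' processing notes; no version or setting is recorded there. Array medians still differed by up to 0.05, so other scalings were tried. The log2 scale was read from the values, which run from 2.58 to 13.8.

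Of 35556 probe sets, 21789 carried 1 gene symbol, 1621 carried several and 12146 were absent from the annotation table; those with 1 symbol were kept, and the probe set with the highest mean stood for each of 19938 genes. Symbols of all 35 measured members matched RefSeq by Entrez identifier. Upstream sequences are RefSeq's for GRCm38.p6; no probe positions were used. Any member could be named. From other lists, up to 4 genes with the largest absolute difference in a comparison were named, among those reaching the floor. Traf6, the keratins and genes said to be named after their values were seen came besides these. Krt5 and Krt14 were named after their values were seen. The members and lists were chosen with earlier results of these data known.

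Differences were computed with Python 3.11.15 and pandas 2.3.3, and counts required the floor on at least 1 array of the comparison. Averaged effects used limma 3.58.1 in R 4.3.3 (eBayes with an intensity trend, Benjamini-Hochberg over 10646 genes), a step tested on simulated data. The number of arrays limits the precision. Alternatives were other scalings, floors, probe set summaries, the list mean and eBayes without a trend.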

Additional observations from a re-analysis of the deposited data

Results flagged for a closer look

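Col14a1 drew attention because the genotype difference lay on opposite sides of 0 without and with IMQ, each at least 1.2-fold. EKO against f/f was at -0.29 without IMQ and at 0.27 with IMQ. With 1 array per group the difference between these values was not tested.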

How the results depend on the processing

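No paired analysis was possible because each group holds 1 array and the labels carry no replicate numbers; for the same reason no array could be left out. The 5 median differences of the set kept their sign and moved by less than 0.1 under every scaling, floor, probe set summary and the list mean. Counts of genes past a fold moved by more than 1.5 times in 3 cases; by less, the 6 genes at least 1.5-fold lower with IMQ in f/f became 5 with arrays centred on their medians and 7 after quantile normalization. With arrays centred on their medians, the genes at least 2-fold lower with IMQ in f/f went from 1 to 0 and those at least 1.5-fold higher in the difference of the IMQ differences from 1 to 0; in both cases the gene was Dpt. With the floor required on every array, those at least 1.5-fold higher with IMQ in f/f went from 2 to 1, as Col18a1 lay below the floor on the untreated array. Limma's count of 0 matrix genes held under all 6 alternatives for both averaged effects, with 14 to 17 genes of the set at an unadjusted p under 0.05 for IMQ and 0 for genotype. No gene at least 1.5-fold different reversed its sign. Other scalings moved the median of all genes by at most 0.05; with IMQ in f/f, where 5 small differences changed sign (Col4a1, Col6a3, Lox, Loxl1 and Postn), the genes below 0 numbered from 25 to 30.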
